A study of Mus musculus with 80 samples.

Results

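Dounce-TRAP and Tissue-TRAP were the same microglial pulldown made after a cold cell preparation and directly from brain tissue, and they were compared over all genes of the cell preparation table. They account for 8 of the 80 libraries of the series, with 4 mice per group, and were chosen by the preparation and fraction given in the library names. All groups were brains of Cx3cr1-cre/ERT2 +/wt; NuTRAP flox/wt mice of both sexes, in which tamoxifen (100 mg/kg, at about 3 months of age) switches on a tagged ribosomal protein in cells that express Cx3cr1. That Cre driver is active in microglia and also in other Cx3cr1-expressing macrophages. For Tissue-TRAP, a brain hemisphere was homogenized at once in ribosome lysis buffer with cycloheximide. For Dounce-TRAP, brain was dissociated by pestle strokes alone, on ice, and passed through 40% Percoll, with no enzyme, no incubation at elevated temperature, and no sort, before the cells were lysed. In each preparation an Input aliquot was set aside (Dounce-Input and Tissue-Input, 4 libraries each), and tagged ribosomes were then pulled down with an anti-GFP antibody. Cell-TRAP (-) Inhibitors, from suspensions made with papain at elevated temperature (4 libraries), is given beside single results.

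Translating ribosome affinity purification (TRAP) recovers the mRNA bound to ribosomes of the tagged cell type, so the profile of a cell can be read from a lysate without isolating that cell. Microglia are the resident macrophages of the brain, and their undisturbed state is marked by a set of homeostatic genes. They answer handling with fast induction of immediate-early genes, which encode transcription factors and feedback regulators, and then of cytokine and chemokine genes. The comparison asks how far a cold preparation leaves the microglial translatome as it is read directly from tissue.

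The Dounce and tissue mice were different animals, and the Dounce libraries were added to the series later than the tissue libraries, so preparation, animals, and library batch cannot be told apart. Dounce-TRAP libraries summed to 2471448 to 4724538 counts and Tissue-TRAP libraries to 8701726 to 11141511. The sequencing metrics of the study list RNA of low integrity and many duplicate reads for Dounce-TRAP, and coverage was 3′-biased in both groups. Dounce-TRAP replicate 3 stood apart: it was the shallowest, had the highest neuronal share (0.648% of counts against 0.344% to 0.441% in replicates 1, 2, and 4), and had the lowest Csf1r. Levels are given as CPM, the counts of a gene scaled to its library's total after TMM normalization, so they are shares of a library and do not give RNA per cell. In edgeR's quasi-likelihood test, genes were called where they changed by more than 2-fold with an FDR (Benjamini-Hochberg) under 0.1. Replicates of a group were separate mice, so p-values rest on the spread between mice within preparations. For TRAP, that spread was estimated over all 16 TRAP libraries of 4 preparations. Among them, the papain suspensions with and without inhibitors came from the same mice, and no block for mouse was used.

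Of 14723 genes tested among 16000 in the table, 3414 (23.2%) were higher in Dounce-TRAP than in Tissue-TRAP and 3993 (27.1%) were lower, with a median log2 fold change of -0.06 over all genes tested. Without Dounce-TRAP replicate 3 the counts were 3497 and 4107. The CPM of the 4 Dounce-TRAP libraries lay above all 4 Tissue-TRAP libraries for 3939 genes (26.8%) and below them for 4817 (32.7%). The genes that rose included most microglial, border macrophage, and lysosomal genes and most nuclear long noncoding RNAs. Those that fell included most neuronal, neuropeptide, and astrocytic genes, most genes of a short brain endothelial list, most ribosomal protein genes, and nearly all oxidative phosphorylation genes.

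**Figure D1:**
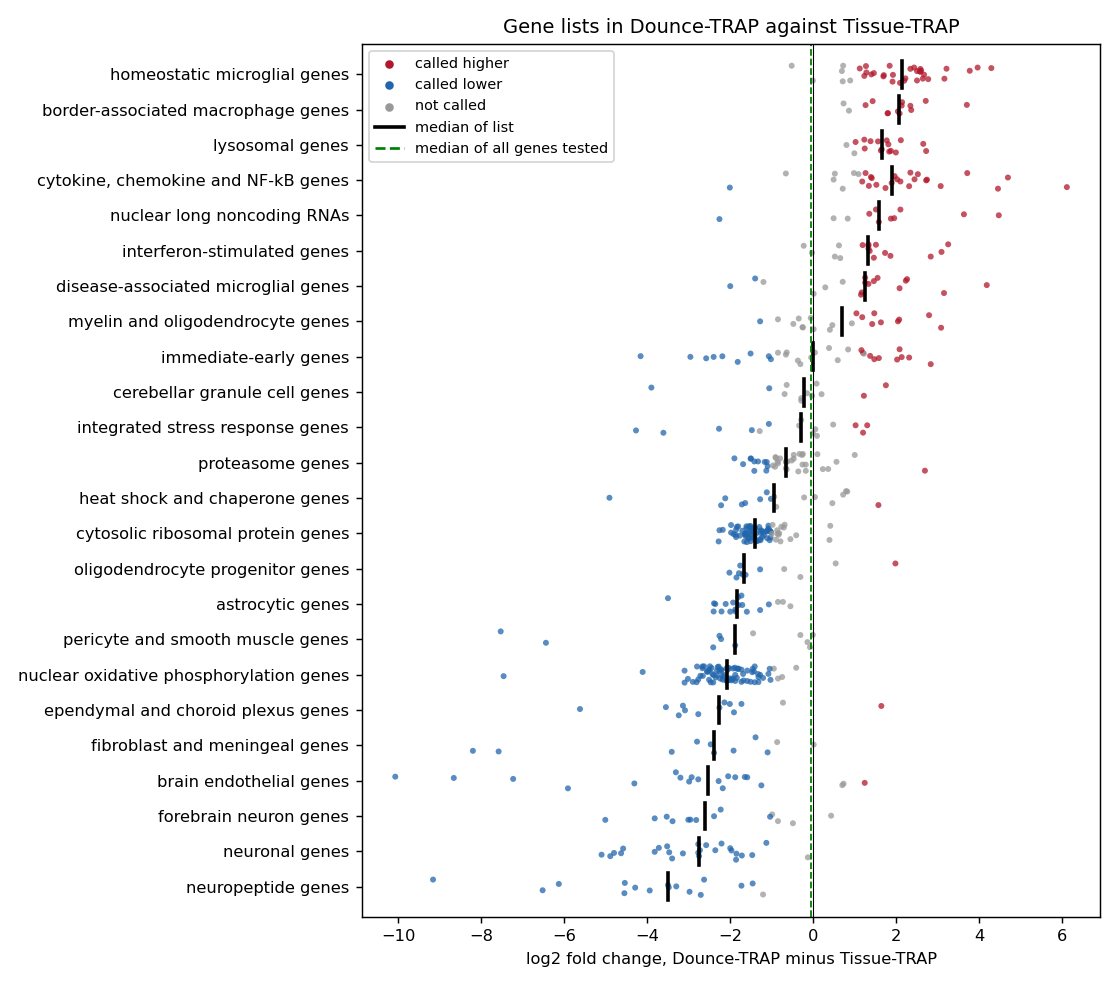
Each point is a gene, placed by its log2 fold change in Dounce-TRAP minus Tissue-TRAP (x-axis) in the row of its list (y-axis), coloured by whether it was called higher, called lower, or not called. Black bars are list medians, from 2.14 for homeostatic microglial genes to -3.49 for neuropeptide genes, and the dashed line is the median of all genes tested (-0.06).

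Homeostatic microglial genes were higher after the Dounce preparation. Of 36 members, 30 rose, none fell, and the median log2 fold change was 2.14, with 30 rising also without Dounce-TRAP replicate 3. Cx3cr1, the fractalkine receptor gene that drives the Cre (chr9:120048683-120068296, minus strand, mm10), stood at 3610, 3220, 3000, and 3800 CPM in Dounce-TRAP replicates 1 to 4 and at 366, 324, 375, and 410 CPM in Tissue-TRAP. The groups did not overlap, and the difference was 9.23-fold (log2 3.21, SE 0.1, edgeR adjusted p = 4.64e-14). P2ry12, the purinergic receptor that steers microglial processes, measured 3390, 3170, 2370, and 3290 CPM against 188, 185, 189, and 221 CPM, a 15.6-fold difference (log2 3.96, SE 0.13, edgeR adjusted p = 7.3e-14). Tmem119, a microglial surface marker, rose 5.07-fold, from 574 to 653 CPM in Tissue-TRAP to 2880 to 3440 CPM. Csf1r, the receptor on which microglial survival depends, rose 4.57-fold, and its lowest Dounce-TRAP library, replicate 3, was at 6240 CPM against 9210 to 9670 CPM in the others. Fewer cells of a type and less RNA per cell cannot be told apart in any of these bulk libraries.

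Not every microglial gene followed. Tyrobp, the adaptor of the Trem2 receptor, measured 451, 385, 434, and 372 CPM in Dounce-TRAP and 353, 415, 499, and 386 CPM in Tissue-TRAP. The groups overlapped, with a log2 difference of -0.01 (SE 0.1, edgeR adjusted p = 0.938). Crybb1, a crystallin gene used as a microglial marker, lay lower in Dounce-TRAP without reaching a 2-fold change (log2 -0.52), at 96.8 to 141 CPM against 159 to 209 CPM. Aif1, which encodes Iba1, and Cst3, which encodes cystatin C, were higher by log2 0.69 and 0.72. Both stayed below the 2-fold threshold and so were not called. At the other end, Ptprc, which encodes CD45, rose 19.6-fold, with 334, 349, 214, and 319 CPM against 15.6, 14.3, 15, and 17.2 CPM.

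The change of a microglial gene was lowest among short transcripts. Among the 282 microglial markers that the study took from earlier work, 247 rose and none fell, with a median of 1.99 (248 rose without Dounce-TRAP replicate 3). In 4 equal bins of exonic length from short to long, their median log2 fold changes were 1.27, 2.03, 1.91, and 2.22. Spearman's rho between length and fold change was 0.39 across these genes, which share the same 8 libraries and are not independent. Over all genes tested the bins had medians of -0.47, -0.02, 0.07, and 0.14 in TRAP and -0.71, -0.12, 0.06, and 0.33 in Input. Against Cell-TRAP (-) Inhibitors the microglial bins lay at -0.47, -0.44, -0.5, and -0.47. The part of RNA integrity and of coverage along the transcript in this relation was not tested.

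**Figure D2:**
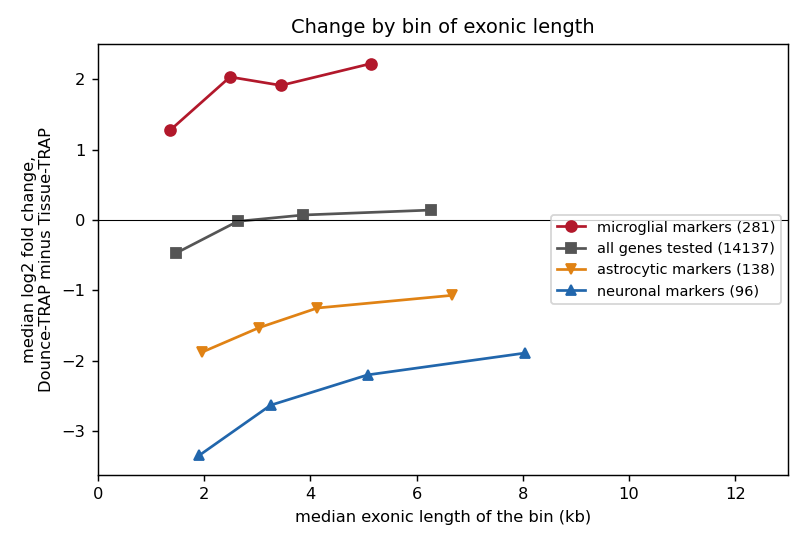
Median log2 fold change in Dounce-TRAP minus Tissue-TRAP (y-axis) against the median exonic length in kb (x-axis) of 4 equal bins, for all genes tested and for the study's microglial, astrocytic, and neuronal markers. The neuronal markers run from -3.34 in the shortest bin to -1.89 in the longest, and the microglial markers from 1.27 to 2.22.

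As a share of counts, the study's microglial markers made up 17.1% to 19% of each Dounce-TRAP library and 5.03% to 5.75% of each Tissue-TRAP library. They made up 20% to 21.3% of Cell-TRAP (-) Inhibitors. In the Input fractions they were at 1.42% to 1.87% after Dounce dissociation and at 0.567% to 0.592% in tissue. In Dounce-Input against Tissue-Input, where 4109 of 15212 genes (27.0%) were higher and 3506 (23.0%) were lower, 33 of the 36 homeostatic genes were higher and none was lower, with a median of 2.27.

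A single fit over both fractions tested where the Dounce-minus-Tissue change in TRAP differed from that in Input. Taken with its sign, the change was higher in TRAP for 1522 of 15212 genes (10.0%) and lower for 3064 (20.1%), with a median difference of -0.28. A lower value can be a smaller rise or a larger fall. Of the 3288 genes called higher in TRAP that also had an Input value, 2336 were called higher in Input as well. Of the 3972 called lower in TRAP, 2301 were lower in Input, and for 1757 the fall in TRAP went beyond the Input change by the test of the difference. Among the 36 homeostatic genes this difference was called for 7, namely 2 in which TRAP rose more (Mertk and Sparc) and 5 in which it rose less or, like Crybb1 and Tyrobp, was not called. Both fractions of an animal stem from the same preparation, so Input and TRAP changes are not separate evidence.

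**Figure D3:**
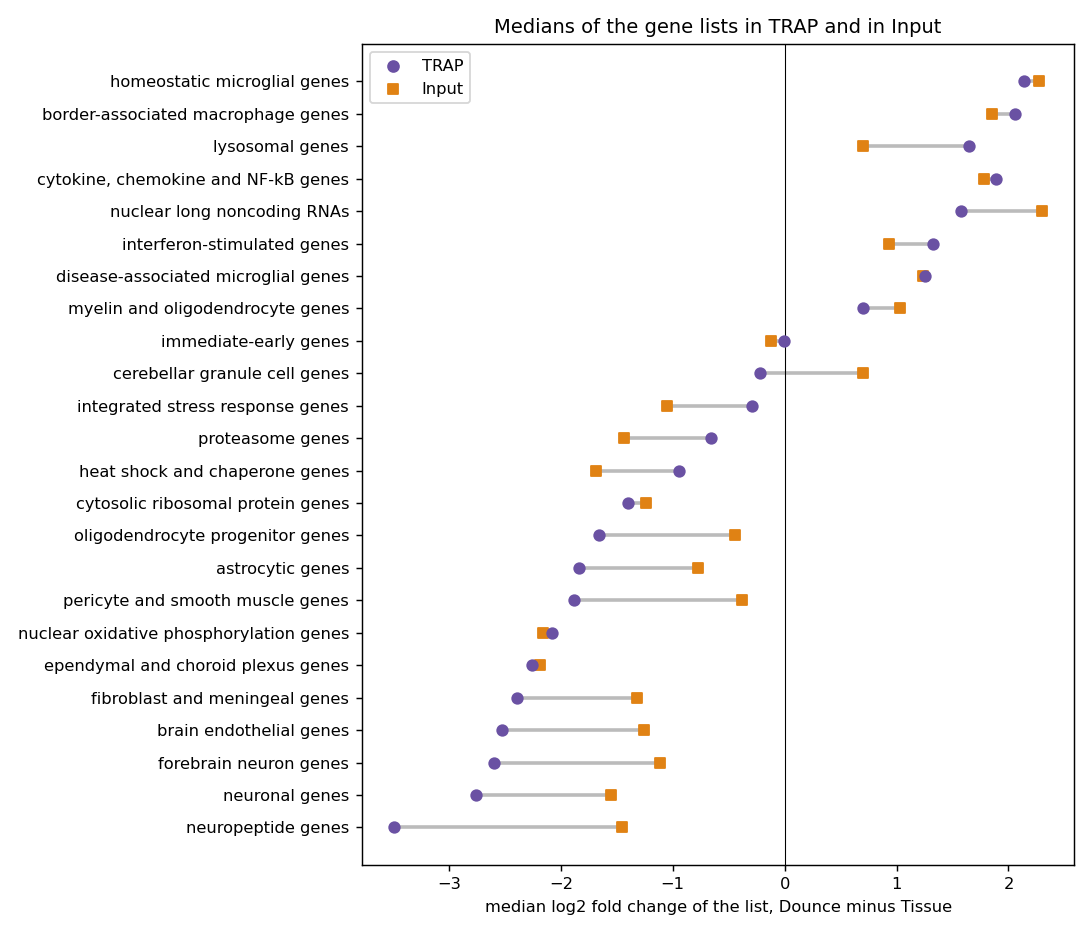
Median log2 fold change, Dounce minus Tissue (x-axis), of each gene list (y-axis) in TRAP (circles) and in Input (squares), with a line joining both values of a list. Homeostatic microglial genes lie at 2.14 and 2.27, and neuronal genes at -2.76 and -1.55.

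Lysosomal genes rose in 15 of 17 members, with none lower and a median of 1.65. Lgmn, the lysosomal protease legumain, measured 4570, 4030, 4180, and 4480 CPM in Dounce-TRAP and 698, 630, 752, and 667 CPM in Tissue-TRAP (6.29-fold, log2 2.65, SE 0.07, edgeR adjusted p = 4.06e-14). Lamp2, a lysosomal membrane protein gene, and Ctsd, which encodes cathepsin D, rose 6.58-fold and 3.13-fold. In Input only 6 of the 17 were higher, and the test of the difference was called for 6, all with the higher change in TRAP. An example is Psap, the precursor of the saposins that activate lysosomal enzymes: it was not called in either fraction, at log2 0.8 in TRAP and -0.76 in Input, but the difference between them was (log2 1.56, SE 0.14, edgeR adjusted p = 7.38e-08). In Dounce-TRAP against Cell-TRAP (-) Inhibitors, where 3047 of all genes tested (20.7%) were higher and 1181 (8.02%) were lower, edgeR called none of the 17, although 14 had an unadjusted p under 0.05 (log2 -0.69 to 0.07).

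Genes of the disease-associated microglial signature were split, with 12 of 18 higher and 2 lower (median 1.25). Clec7a, the beta-glucan receptor dectin-1, rose 18.2-fold to 52 to 74.7 CPM, and Lpl, lipoprotein lipase, 8.9-fold to 151 to 301 CPM. Lpl was also high in Dounce-Input, at a mean of 641 CPM, and lower in Cell-TRAP (-) Inhibitors, at 79.4 CPM. Apoe, the brain's main apolipoprotein, which astrocytes also make, rose 2.38-fold in TRAP, while its Input change was log2 -0.55 and not called. Spp1, which encodes osteopontin, went the other way with 6.93, 5.59, 20.1, and 5.06 CPM against 32.4, 36.2, 45.1, and 29.2 CPM. It fell by 2 on the log2 scale, and by 2.61 without Dounce-TRAP replicate 3. Fth1, the ferritin heavy chain, fell 2.64-fold.

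Border-associated macrophages also carry the Cre driver. Of their 14 marker genes 12 rose and none fell, with a median of 2.06, and the list made up 0.273% to 0.481% of Dounce-TRAP and 0.0587% to 0.0756% of Tissue-TRAP counts. Mrc1, the mannose receptor, measured 774, 1060, 541, and 433 CPM against 56.6, 45.4, 50.8, and 63.9 CPM (13-fold, log2 3.7, SE 0.29, edgeR adjusted p = 2.09e-09). Cd163, the haemoglobin scavenger receptor, rose 5.13-fold. Against Cell-TRAP (-) Inhibitors 1 of the 14 was lower and none was higher, with a median of -0.01.

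Immediate-early genes moved in both directions against tissue. Of 30 members 10 rose (33.3%) and 9 fell (30.0%), with a median of -0.01. Over all genes tested the shares were 23.2% and 27.1%, so the counts alone do not set this list far apart. Fos, the AP-1 subunit that defines this class (chr12:85473901-85477270, plus strand), was at 9.33, 6.79, 16, and 2.98 CPM in Dounce-TRAP and at 44.3, 30.7, 19.3, and 24.6 CPM in Tissue-TRAP. Every Dounce-TRAP library lay below every Tissue-TRAP library, a 3.53-fold fall (log2 -1.82, SE 0.36, edgeR adjusted p = 0.000202). Egr1, a zinc finger factor of the same class, fell 5.29-fold (17.6, 25.8, 19, and 18.2 CPM against 139, 105, 67.5, and 119 CPM). Arc, a synaptic plasticity gene of active neurons, fell 6-fold, and Egr3 fell 17.9-fold (log2 -4.16, or -7.43 without replicate 2, which held nearly all of its Dounce-TRAP counts).

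Among the members that rose were feedback regulators. Zfp36 and Zfp36l1, which encode RNA-binding proteins that destabilize AU-rich mRNAs, rose 4.97-fold and 7.13-fold. Zfp36 measured 86.4, 56.5, 60, and 79.2 CPM against 12.2, 12.4, 15.7, and 16.4 CPM, with no overlap. Btg2, an antiproliferative gene, rose 4.38-fold and Junb 2.23-fold. Jun and Dusp1, the phosphatase gene that ends MAP kinase signalling, overlapped between the groups at log2 -0.05 and -0.31 (edgeR adjusted p = 0.752 and 0.298). Arc and Egr3 are also expressed by neurons, and 25 of 26 neuronal genes fell in the same comparison. The part of neuronal RNA in these falls was not tested.

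Beside the enzymatic suspension these levels were small. In Cell-TRAP (-) Inhibitors, Fos was at 3390 to 6490 CPM, Egr1 at 2140 to 4080 CPM, Jun at 3270 to 5220 CPM, and Zfp36 at 2900 to 4580 CPM. Immediate-early genes summed to 2.45% to 3.98% of its counts, against 0.206% to 0.231% in Dounce-TRAP and 0.137% to 0.172% in Tissue-TRAP. In Dounce-TRAP against Cell-TRAP (-) Inhibitors, 24 of the 30 were lower and 2 higher, with a median of -3.67. The 2 were Arc and Npas4, both genes of active neurons. This contrast shares the Dounce-TRAP libraries with the contrast against tissue, so both sets of values rest on the same libraries.

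**Figure D4:**
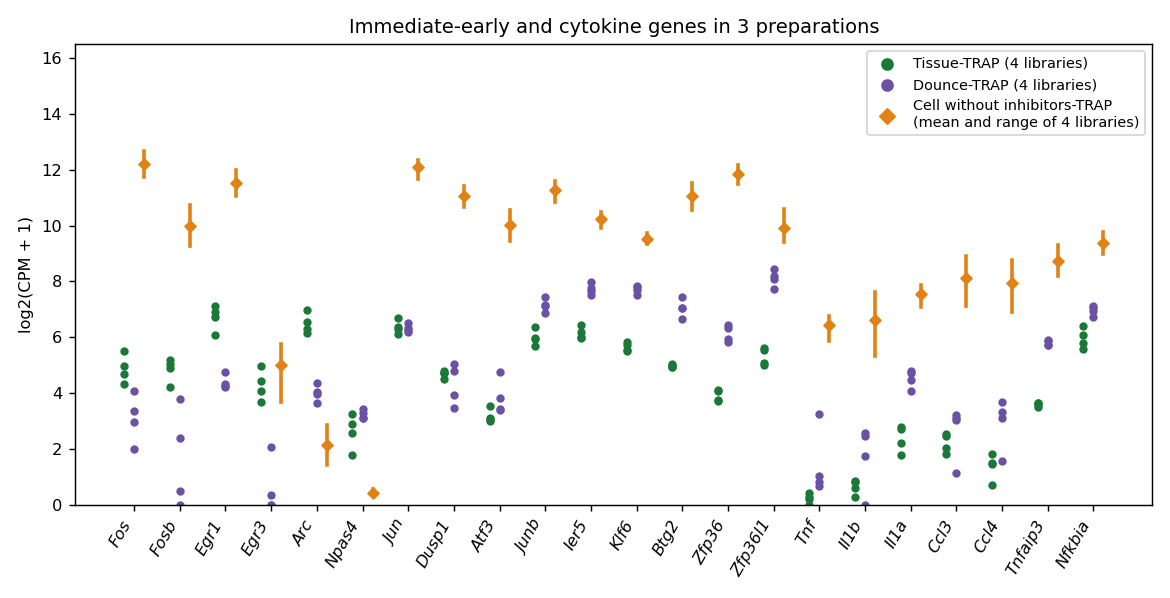
Levels of immediate-early and cytokine genes (x-axis) as log2(CPM + 1) (y-axis), with a point for each Tissue-TRAP and Dounce-TRAP library and the mean and range of the Cell-TRAP (-) Inhibitors libraries. Fos lies at 2.98 to 16 CPM in Dounce-TRAP, 19.3 to 44.3 CPM in Tissue-TRAP, and 3390 to 6490 CPM in Cell-TRAP (-) Inhibitors.

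Cytokine, chemokine, and NF-kB genes were higher in Dounce-TRAP than in Tissue-TRAP in 22 of 29 members and lower in 1, with a median of 1.89 (1.6 with 2 genes that had a group at 0 set at their bound). Without Dounce-TRAP replicate 3, 23 were higher. The fold is set against low tissue levels and against microglial markers that rose by a like median. Cd14, the lipopolysaccharide co-receptor, measured 361, 295, 292, and 362 CPM against 50, 49.2, 51.1, and 49 CPM, a 6.57-fold difference. Il1a, the interleukin 1 alpha gene, was at 25.3, 21.4, 15.7, and 26.8 CPM against 3.7, 2.41, 5.88, and 5.57 CPM. Tnf, which encodes tumour necrosis factor, was at 1.07, 0.599, 0.746, and 8.63 CPM against 0.172, 0, 0.203, and 0.36 CPM, and the log2 difference fell from 3.71 to 1.99 without Dounce-TRAP replicate 4, both called.

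Other members were not called higher. The chemokine gene Ccl3 measured 7.2, 7.59, 8.2, and 1.19 CPM against 2.58, 4.51, 4.87, and 3.06 CPM and was not called (log2 0.71, SE 0.5, edgeR adjusted p = 0.213), but without Dounce-TRAP replicate 4 it was (log2 1.03, edgeR adjusted p = 0.0682). Nfkbia, the NF-kB inhibitor gene, was higher by log2 0.98 and missed the fold threshold, which it passed without Tissue-TRAP replicate 2 or 3 or Dounce-TRAP replicate 2 (log2 1.14, 1.01, and 1.05). Gadd45b, a stress-response gene, fell 4.03-fold. Against Cell-TRAP (-) Inhibitors, 21 of the 29 were lower and none was higher (median -2.74). There Ccl3 was at 138 to 481 CPM and Tnf at 57.2 to 107 CPM.

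Interferon-stimulated genes rose in 12 of 17 members and fell in none (median 1.33). Rsad2, which encodes viperin, rose 9.55-fold and Ifit1, an antiviral RNA-binding protein gene, 7.13-fold, and both had a higher mean in Dounce-Input (73.1 and 56.8 CPM) than in Dounce-TRAP, where their ranges were 15.6 to 27.7 and 15.6 to 34.7 CPM.

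Heat shock and chaperone genes fell in 8 of 17 members and rose in 1 (median -0.94). Hsp90aa1, the inducible cytosolic HSP90, measured 149, 210, 230, and 165 CPM against 1060, 875, 814, and 762 CPM, a 4.65-fold fall (log2 -2.22, SE 0.13, edgeR adjusted p = 5.96e-11). Hspb1, a small heat shock protein gene, fell 30.1-fold (log2 -4.91, or -5.54 without Dounce-TRAP replicate 4). Hsp90b1, the endoplasmic reticulum member, was the gene that rose, 2.96-fold. In Input 12 of the 17 fell and none rose, and the difference was called for 7 members, all with the higher change in TRAP. Among 15 integrated stress response genes 5 fell and 3 rose (median -0.29). Over all genes tested 27.1% fell and 23.2% rose, so the counts alone do not set this list far apart. Asns, asparagine synthetase, fell 12.2-fold and Chac1 19.3-fold (log2 -4.27, or -5.18 without Dounce-TRAP replicate 2), while the amino acid transporter subunit Slc3a2 rose 2.47-fold.

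Neuronal genes were lower in Dounce-TRAP in 25 of 26 members and higher in none, with a median of -2.76, and 25 were lower without Dounce-TRAP replicate 3. Of the study's 96 neuronal markers tested, 82 fell and 2 rose (median -2.6). Snap25, the presynaptic SNARE protein gene, measured 383, 374, 366, and 326 CPM against 2220, 2200, 2100, and 2150 CPM, a 5.98-fold fall (log2 -2.58, SE 0.31, edgeR adjusted p = 7.23e-07). Gad1, the GABA-synthesizing enzyme of inhibitory neurons, fell 13.2-fold, and Slc17a7, the vesicular glutamate transporter of excitatory neurons, 4.01-fold. Nefl, the neurofilament light chain (chr14:68083884-68087737, plus strand), was at 12.8, 6.59, 1.86, and 14 CPM against 298, 281, 250, and 237 CPM, a 29.7-fold fall. Gria2, an AMPA receptor subunit gene, was not called, with 307, 283, 458, and 289 CPM against 316, 366, 361, and 419 CPM.

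The list made up 0.344% to 0.648% of Dounce-TRAP counts, 2.23% to 2.49% of Tissue-TRAP, 1.24% to 1.31% of Dounce-Input, and 2.81% to 2.89% of Tissue-Input. The test of the Dounce-minus-Tissue change in TRAP against that in Input was called for 18 of the 26 genes, all with the lower value in TRAP. Gad1 differed by log2 -2.46 (SE 0.15, edgeR adjusted p = 1.83e-09) and Gria2, which rose in Input, by log2 -1.98. Against Cell-TRAP (-) Inhibitors, 24 of the 26 were higher in Dounce-TRAP and none was lower (median 2.99), and Snap25 was at 22.5 to 53.2 CPM in that suspension.

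**Figure D5:**
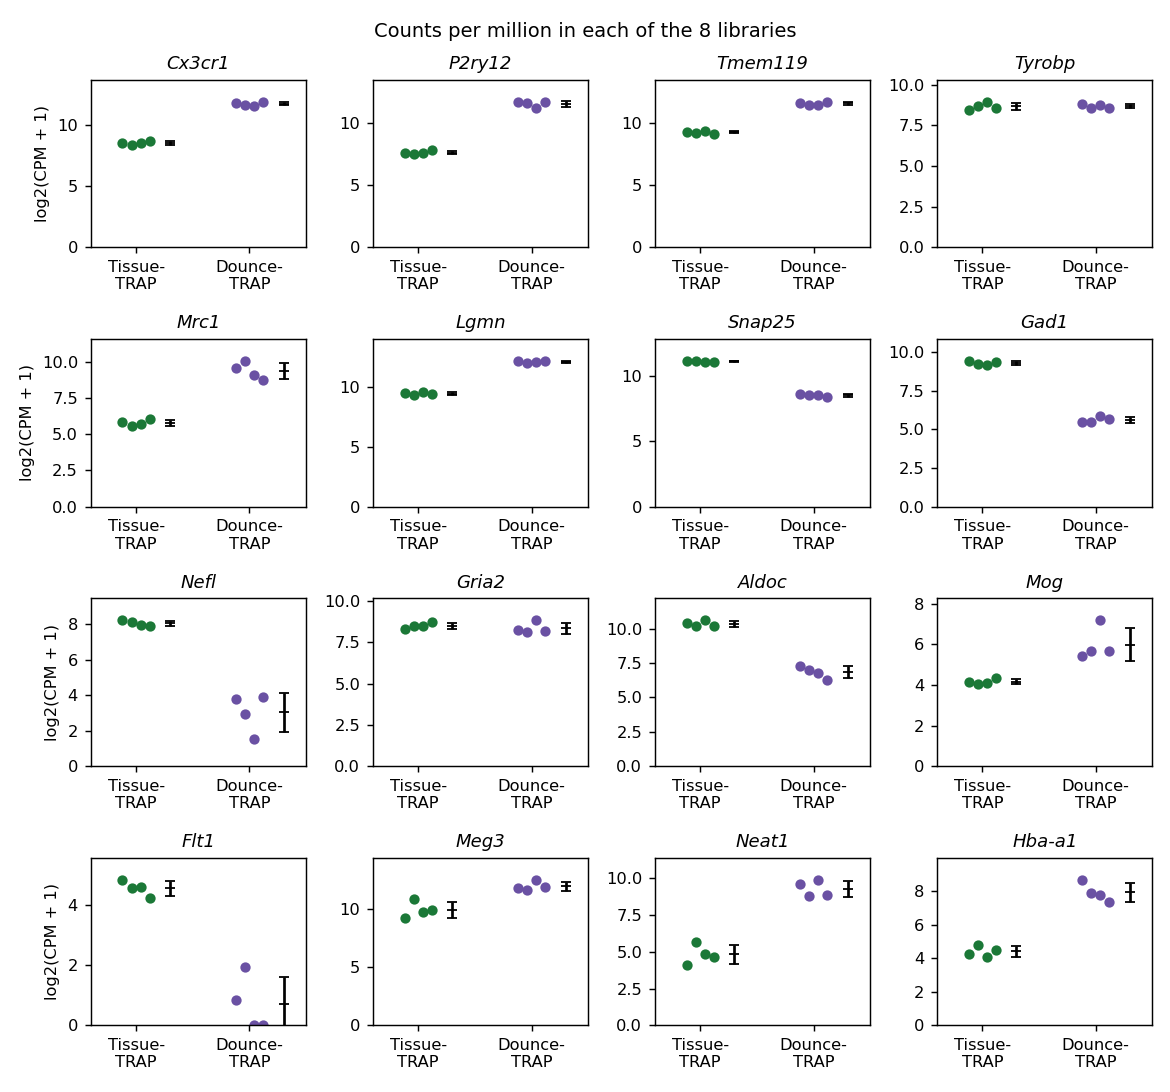
Levels of 16 genes as log2(CPM + 1) (y-axis) in each of the 4 Tissue-TRAP and 4 Dounce-TRAP libraries (x-axis), with a point per library and bars for the mean and SD of the log2 values. Cx3cr1 lies at 3000 to 3800 CPM in Dounce-TRAP and at 324 to 410 CPM in Tissue-TRAP, and Snap25 at 326 to 383 and 2100 to 2220 CPM.

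Genes of neurons from different regions gave different counts. Forebrain neuron genes fell in 10 of 14 members (median -2.6), whereas 12 cerebellar granule cell genes split into 2 higher, 2 lower, and 8 not called (median -0.22). Nrgn, neurogranin of forebrain neurons, fell 32.3-fold, from 810 to 964 CPM to 19.8 to 39.6 CPM. Gabra6, a GABA-A receptor subunit of cerebellar granule cells, measured 53.3, 42.1, 101, and 43.5 CPM against 24.9, 20.1, 31, and 26.6 CPM, a 2.32-fold rise, and Fat2, a cadherin gene of the same cells, rose 3.36-fold. For both, replicate 3 was the highest Dounce-TRAP library, and without it Gabra6 was at log2 0.85 and no longer called (log2 1.22 with it). In Input, 5 of the 12 cerebellar genes were higher and 1 was lower. Calb2, the calretinin gene, which interneurons of other regions also express, was a member that fell, 14.9-fold. Whether the 2 lists differ from each other was not tested.

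Neuropeptide genes showed the lowest median of any neuronal list, with 15 of 16 lower. The median was -3.49, or -3.39 with 1 gene that had a group at 0 set at its bound. Sst, somatostatin, was at 8, 13.8, 24.6, and 3.87 CPM against 221, 195, 192, and 145 CPM. Pvalb, also on the list, encodes no neuropeptide but the calcium buffer parvalbumin of fast-spiking interneurons and Purkinje cells. It was at 5.87, 3.79, 5.22, and 2.68 CPM against 326, 245, 444, and 205 CPM, a 70-fold fall. In Input 13 of the 16 fell, with a median of -1.45, and 12 were called for a larger fall in TRAP.

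Receptor genes of the synapse fell further in TRAP than in Input. Of 29 ionotropic glutamate and GABA-A receptor genes 18 fell and 4 rose in TRAP (median -1.33), while 2 fell and 6 rose in Input (median 0.14). The difference was called for 19, all lower in TRAP. Grin2b, an NMDA receptor subunit gene, fell 4.25-fold in TRAP, and Grik2, a kainate receptor subunit gene, rose 4.24-fold to 60, 76.7, 73.8, and 96.8 CPM from 15.1 to 24.4 CPM. Among 55 voltage-gated ion channel genes 34 fell and 2 rose (median -1.81), against 12 that fell and 8 that rose of 54 in Input (median -0.24). The length trend held among the neuronal markers too, with medians of -3.34, -2.63, -2.2, and -1.89 from the shortest to the longest bin (rho 0.39, 96 genes). It was less regular among the study's 230 endothelial markers, at -1.57, -1.13, -0.11, and -0.76 (rho 0.15).

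Astrocytic genes fell in 17 of 20 members and rose in none (median -1.84). Aldoc, the astrocytic aldolase, measured 157, 127, 109, and 75.3 CPM against 1350, 1160, 1580, and 1190 CPM, an 11.3-fold fall (log2 -3.5, SE 0.24, edgeR adjusted p = 4.64e-10). Aqp4, the water channel of astrocyte endfeet, fell 3.65-fold. Slc1a2, the main astrocytic glutamate transporter, was not called, with overlapping values of 2910, 2290, 1160, and 1640 CPM against 2760, 2480, 3390, and 4600 CPM. The list made up 0.352% to 0.575% of Dounce-TRAP counts and 0.93% to 1.23% of Tissue-TRAP counts.

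Myelin and oligodendrocyte genes rose in 9 of 20 members and fell in 1 (median 0.7), and 7 rose without Dounce-TRAP replicate 3. Mog, a minor myelin glycoprotein, was at 41.9, 49.7, 145, and 49.7 CPM against 16.6, 15.6, 16, and 19.4 CPM. Replicate 3 was the highest Dounce-TRAP library, and without it the log2 difference of Mog was 1.47 in place of 2.07. Mbp, myelin basic protein, was not called (log2 -0.26, edgeR adjusted p = 0.455). In Input 11 of the 20 rose, and the study's 192 oligodendrocytic markers gave 60 higher and 50 lower in TRAP with a median of -0.03. Oligodendrocyte progenitor genes fell in 8 of 12 members and rose in 1, with Pdgfra, their growth factor receptor, at 0.533 to 7.83 CPM against 8.77 to 10.7 CPM (log2 -1.28, or -0.94 and not called without Dounce-TRAP replicate 1).

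Endothelial genes gave different counts in a short and a long list. Of 20 brain endothelial genes 17 fell and 1 rose (median -2.53, or -2.45 with 2 members at 0 set at their bound). Of the study's 230 endothelial markers tested, 108 fell and 47 rose (median -0.93), and their summed share of counts was 0.72% to 0.805% in Dounce-TRAP and 0.657% to 0.714% in Tissue-TRAP. Flt1, a VEGF receptor, measured 0.8, 2.8, 0, and 0 CPM against 27.4, 22.2, 22.9, and 17.6 CPM (log2 -4.31, or -6.15 without replicate 2). Sox18, an endothelial transcription factor gene, was at 0 in all 4 Dounce-TRAP libraries and at 21.9, 14.9, 11.6, and 7.37 CPM in Tissue-TRAP, at least 16.3-fold lower when 3 counts per library are taken as the floor. Cldn5, the tight junction claudin, fell 7.61-fold. Eng, which encodes endoglin, was the member that rose, 2.36-fold, and Pecam1, which leukocytes also express, was higher by log2 0.7 and not called.

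In Cell-TRAP (-) Inhibitors all 20 endothelial genes were higher than in Dounce-TRAP, with a median of -4.62 for Dounce-TRAP against it. Pericyte and smooth muscle genes fell in 6 of 11 members and rose in none, and Rgs5, a pericyte marker, was at 0 to 0.298 CPM against 12.3 to 13.4 CPM. Ependymal and choroid plexus genes fell in 11 of 13 members and rose in 1 (median -2.26). Ttr, the transthyretin gene of choroid epithelium, was at 6.67, 35.5, 26.5, and 22.6 CPM against 196, 236, 285, and 153 CPM, while Enpp2, which oligodendrocytes also express, rose 3.12-fold. Fibroblast and meningeal genes fell in 9 of 11 members tested, among them Igf2, at 11.2 to 28.2 CPM against 170 to 262 CPM.

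Blood genes were high in Dounce-Input and less so in Dounce-TRAP. The list made up 1.92% to 2.26% of Dounce-Input, 0.021% to 0.0352% of Tissue-Input, 0.036% to 0.0869% of Dounce-TRAP, and 0.00366% to 0.00584% of Tissue-TRAP. Of its 20 genes that the table lists, 8 passed the filter on low counts in TRAP, of which 6 rose and 1 fell, so the 12 others carry no test. Hba-a1, an alpha globin whose reads a near-identical copy can share, measured 413, 241, 223, and 161 CPM against 18.3, 27.2, 15.9, and 21.7 CPM, with a mean of 7900 CPM in Dounce-Input. Ccr2, the chemokine receptor of blood monocytes, rose 16.9-fold to 16.2 to 23.2 CPM from 0.774 to 1.82 CPM, and in Dounce-Input its mean was 12.4 CPM. Hp, the haptoglobin gene, which neutrophils also express, fell in TRAP to 0, 0.799, 0, and 0 CPM while it rose in Input (log2 -3.04 in TRAP, or -7.46 without replicate 2), to a mean of 14.8 CPM from 2.19 CPM.

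Long noncoding RNAs that stay in the nucleus rose in 8 of 11 members and fell in 1 (median 1.58). Neat1, the paraspeckle RNA (chr19:5842302-5845478, minus strand), measured 775, 440, 956, and 466 CPM against 16.3, 50.7, 27.4, and 24.6 CPM, a 22.2-fold difference (log2 4.47, SE 0.39, edgeR adjusted p = 9.33e-09). Meg3, a maternally expressed neuronal transcript, was at 3670, 3270, 6100, and 3900 CPM against 608, 1890, 906, and 978 CPM. Kcnq1ot1, an imprinted antisense RNA, rose 12.4-fold. Malat1 was not called, with 439, 443, 604, and 509 CPM against 143, 560, 216, and 206 CPM, of which the highest tissue value was replicate 2; without it Malat1 was called, at log2 1.4 in place of 0.83. The same tissue library was the highest for Snhg11 (192, 1020, 431, and 547 CPM), a neuronal transcript that rose 4.27-fold. Peg13 was the member that fell, 4.81-fold.

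These RNAs are not bound by ribosomes in the usual way, and their level in the pulldown moved with that in Input. They made up 3.44% to 4.4% of Dounce-Input, 0.9% to 1.46% of Dounce-TRAP, 0.559% to 0.65% of Tissue-Input, 0.177% to 0.489% of Tissue-TRAP, and 0.0271% to 0.0435% of Cell-TRAP (-) Inhibitors. In Input 9 of the 11 rose (median 2.3), and against Cell-TRAP (-) Inhibitors 9 were higher and none lower (median 4.27). The only member called for a difference between fractions was Malat1, at log2 -2.18, with the smaller change in TRAP. The part of RNA carried over without tagged ribosomes in these values was not tested.

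Genes of the ribosome and of oxidative phosphorylation fell together. Of 82 cytosolic ribosomal protein genes 67 fell and none rose (median -1.4), and of 81 nuclear oxidative phosphorylation genes 77 fell and none rose (median -2.08), with 66 and 77 lower without Dounce-TRAP replicate 3. Rpl37, a large-subunit protein gene, measured 26.9, 29.5, 41.4, and 22.3 CPM against 131, 154, 176, and 119 CPM. Cox5a, a cytochrome c oxidase subunit, measured 24.5, 32.3, 46.2, and 16.7 CPM against 248, 253, 276, and 241 CPM, an 8.57-fold fall (log2 -3.1, SE 0.2, edgeR adjusted p = 1.4e-10). The same lists fell in Input, with 65 of 82 and 76 of 81 members lower and medians of -1.24 and -2.16. Most of these mRNAs are short, with median exonic lengths of 896.5 nt for the ribosomal and 875 nt for the oxidative phosphorylation list. The shortest of 4 bins of all genes had a median of -0.47, less negative than either list. Its median length was 1475 nt, so it is not matched in length to either list. The part of transcript length in these falls was not tested.

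Against Cell-TRAP (-) Inhibitors, 15 of the 82 ribosomal protein genes (18.3%) and 6 of the 81 oxidative phosphorylation genes (7.41%) were lower in Dounce-TRAP. Of all genes tested, 8.02% were lower in that contrast, so the oxidative phosphorylation share was near it. Translation factor genes fell in 6 of 18 members (33.3%) and rose in none (median -0.77), with the elongation factor subunit Eef1g 3.49-fold lower. Proteasome genes fell in 11 of 39 members (28.2%) and rose in 1, and the catalytic subunit gene Psmb5 fell 3.74-fold. Both shares of falls lay near that of all genes tested (27.1%). In Input 26 of the 39 fell, and the difference between fractions was called for 12, all with the higher change in TRAP. Rpl10a and Rangap1, whose proteins the NuTRAP construct adds in tagged form, were not called in TRAP, at log2 -0.41 and -0.16.

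Transcripts scarce in Tissue-TRAP and in Cell-TRAP (-) Inhibitors led the rises. Among called genes with a mean of at least 20 CPM in the higher group and no overlap, the 12 largest rises were 4932411N23Rik, Gcm1, Pigr, Xkrx, Rhox8, Bcmo1, Gm5415, Myoz3, BC021785, Gm20337, Mboat1, and Hoxb1, and none is a marker of a brain cell type on the lists. Their mean CPM was 0.0778 to 3.01 in Tissue-TRAP, 0.0561 to 4.31 in Cell-TRAP (-) Inhibitors, and 21.8 to 186 in Dounce-TRAP. Pigr, the polymeric immunoglobulin receptor of epithelia (chr1:130826684-130852249, plus strand), measured 150, 97.8, 342, and 154 CPM against 1.46, 3.78, 3.14, and 2.07 CPM, a 71.6-fold difference (log2 6.16, SE 0.39, edgeR adjusted p = 1.52e-10). Gcm1, a transcription factor of the placenta, was at 21.6, 11.8, 31.7, and 22 CPM against 0, 0.21, 0.101, and 0 CPM, and Bcmo1, which cleaves beta-carotene, at 114, 70.7, 205, and 135 CPM against 0.86 to 3.57 CPM. The homeobox gene Hoxb1 rose 37.7-fold. All 12 were also higher in Dounce-Input than in Tissue-Input, and 11 had a higher mean in Dounce-Input than in Dounce-TRAP.

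The exception was Xkrx, at 9.6, 148, 33.9, and 143 CPM in Dounce-TRAP and a mean of 9.23 CPM in Dounce-Input. It had the largest positive difference between the TRAP and Input changes among genes with a mean of at least 20 CPM in a group (log2 4.44, SE 0.83, edgeR adjusted p = 0.000266). Next came Gm1821, a ubiquitin pseudogene, Lars2, Atp8a2, Ier5, and Nrip1, at log2 3.46, 3.34, 3.18, 3.03, and 2.97. Lars2, the mitochondrial leucyl-tRNA synthetase gene, was at 123, 838, 91, and 818 CPM in Dounce-TRAP against 418, 321, 410, and 645 CPM, with replicates 2 and 4 above 1 and 3, and it was not called in TRAP. Xkrx, and the ribosomal RNA precursor Rn45s described below, were also higher in Dounce-TRAP replicates 2 and 4 than in 1 and 3. Whether a feature of those libraries links these genes was not tested. Ier5, an immediate-early response gene, rose 2.99-fold in TRAP while it fell in Input.

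The 12 largest falls were those of Sncg, Gng13, Klhdc8a, Bhlhe22, Cartpt, Car8, Rab3b, Fxyd7, B630019K06Rik, Th, Pvalb, and Chchd10. Sncg, gamma-synuclein of peripheral and some central neurons (chr14:34370274-34374669, minus strand), was at 0 in every Dounce-TRAP library and at 24.9, 35.7, 21.8, and 11 CPM in Tissue-TRAP, at least 27.4-fold lower with the same floor. Th, tyrosine hydroxylase of dopamine neurons, was at 0.267, 2.2, 0.373, and 1.19 CPM against 88.3, 90.4, 69, and 85.9 CPM, a 73.3-fold fall. Car8, a Purkinje cell protein gene, fell 88.4-fold, and the small vesicle GTPase Rab3b fell 85-fold. Such folds rest on few counts: without Dounce-TRAP replicate 2 the log2 change of Th was -7.06 in place of -6.2, and without replicate 1 that of Car8 was -7.24 in place of -6.47. All 12 were lower in Input too, and all 12 were called for a larger fall in TRAP, though Sncg was not without Dounce replicate 1 (edgeR adjusted p = 0.114). The most negative fitted differences between fractions were those of Paqr9 (log2 -8.91, with a mean of 9.26 CPM in Dounce-Input), Lcn2 (-7.38), Sncg (-6.03), Gng13 and Cartpt (both -5.08), and Fcrl1 (-4.99). Paqr9 and Sncg had 0 counts in all Dounce-TRAP libraries, where a fitted value is no bound: with TRAP at the floor of 3 counts their differences from Input were log2 -3.05 and -0.17. Lcn2, a neutrophil granule protein gene, had a mean of 34 CPM in Dounce-Input and at most 0.533 CPM in Dounce-TRAP, where it was not tested.

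The genes with the highest counts changed accordingly, on a scale not corrected for transcript length. The 10 highest in Dounce-TRAP included Cst3, Ctsd, Csf1r, Ctss, Apoe, Sparc, Psap, Serinc3, and Selplg, and 8 of the 10 were called higher than in tissue. In Tissue-TRAP the 10 highest included Cst3, Ctsd, Psap, Apoe, and Sparc beside Rn45s, Slc1a2, Hspa8, and Ckb. Ckb, the brain creatine kinase, fell 3.95-fold. Rn45s, the ribosomal RNA precursor, which exists in many copies, was at 1290, 6410, 1390, and 5570 CPM in Dounce-TRAP and at 3180, 2320, 3280, and 5600 CPM in Tissue-TRAP.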

How the data were processed

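Stranded RNA-Seq libraries were compared from one deposited table of the cell preparation experiment (16000 genes), and 2 other tables were not used here. Per the study's methods, the authors trimmed reads, aligned them to mm10 in Strand NGS with strand taken into account, removed duplicates, and counted reads per gene, and the deposited expected count values are those counts, 20.8% of them whole. The deposited log2 values were made by the authors from the counts with DESeq2's size factors and set relative to the tissue Input, and they served only as an alternative. The table lists genes with more than 5 counts in every library of a group, and 23 symbols turned into dates were restored from their identifiers.

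Expected counts were rounded. The 16 TRAP libraries of 4 preparations were fitted together in edgeR 4.0.16 (R 4.3.3; TMM, quasi-likelihood test) over 14723 genes with more than 5 counts in every library of at least 1 TRAP group. The FDR was under 0.1 and the fold above 2 for a call. A second fit of 16 libraries (Tissue and Dounce, Input and TRAP) tested the interaction of preparation and fraction. Folds against a group at 0 used a floor of 3 counts per library, for counting error only. The fits were tested on simulated data. Alternatives used DESeq2 1.42.0 and limma 3.58.1.

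Named are the 12 called genes with the largest rise and fall (mean of at least 20 CPM in the higher group, no overlap of the groups), the 10 genes with the highest CPM per group, the 6 with the largest interaction in each direction, and members of 33 lists that were called or define the list. Lists were described by counts and medians, with no test of their own. Members and lists were chosen with earlier results of these data known, and the cell type markers of the study were read from its supplement. Some named genes are not reported here. Exonic lengths came from GENCODE M21 for 96% of the genes tested. Input and TRAP of a replicate come from the same animal, and deviations from the group mean of the 8 animals correlated between fractions at 0.0312 to 0.141, against at most 0.0446 with another animal. Dounce and tissue replicates are different animals and do not pair.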

Additional observations from a re-analysis of the deposited data

Results flagged for a closer look

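For 64 of the 128 genes named in the text, the Dounce-minus-Tissue change differed between TRAP and Input by edgeR's test of the interaction (FDR under 0.1 and a difference above 2-fold, adjusted over 15212 genes, n = 4 animals per preparation). Over all 15212 genes the change was higher in TRAP for 1522 (10.0%) and lower for 3064 (20.1%). The named genes include those picked for the largest such differences, so 64 of 128 is no rate for all genes. Values are log2 differences, the change in TRAP minus that in Input.

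The change was higher in TRAP for 22 genes. They were Xkrx at 4.44, Gm1821 at 3.46, Lars2 at 3.34, Atp8a2 at 3.18, Ier5 at 3.03, Nrip1 at 2.97, Junb at 2.13, Apoe at 1.8, Rn45s at 1.75, Rangap1 at 1.72, and Zfp36l1 at 1.68. Jun followed at 1.58, Psap at 1.56, Lamp2 at 1.48, Mertk at 1.42, Hsp90b1 at 1.36, Serinc3 at 1.35, Hspa8 at 1.32, Sparc at 1.23, Btg2 at 1.19, Slc3a2 at 1.06, and Psmb5 at 1.05.

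The change was lower in TRAP for 42 genes. They included Paqr9 at -8.91, Sox18 at -6.94, Sncg at -6.03, Cartpt and Gng13 at -5.08, Bhlhe22 at -3.91, Fxyd7 at -3.48, Klhdc8a at -3.2, Rgs5 at -2.74, Grin2b at -2.71, Th at -2.64, Chchd10 at -2.63, Flt1, B630019K06Rik, and Rab3b at -2.49, Gad1 at -2.46, Sst at -2.32, Car8 at -2.27, Gria2 at -1.98, Pvalb at -1.97, Nrgn at -1.51, Calb2 at -1.44, Npas4 at -1.33, Nefl at -1.22, Arc at -1.12, Grik2 at -1.09, and Gabra6 at -1.05. Among blood, immune, and microglial genes were Lcn2 at -7.38, Hp at -5.74, Fcrl1 at -4.99, Rsad2 at -2.48, Hba-a1 at -2.18, Tyrobp at -1.68, Ifit1 at -1.66, Lpl at -1.39, Crybb1 at -1.17, and Ptprc at -1.11. The others were Hoxb1 at -2.37, Malat1 at -2.18, Aldoc at -1.76, Aqp4 at -1.44, and Fos at -1.08. Paqr9, Sncg, and Sox18 had 0 counts in all Dounce-TRAP libraries, so their fitted values are no bound, and with TRAP at 3 counts per library the differences were -3.05, -0.17, and -1.07.

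Calls were lost for 8 of the 64 genes under some settings. Fos lost its call with DESeq2 size factors and on leaving out any animal other than Dounce replicate 3. Arc lost it without Dounce replicate 1 (-0.98) or 2 (-0.86), Crybb1 without Tissue replicate 3 (-0.99), Psmb5 without Tissue replicate 4 (0.95), Rgs5 without Dounce replicate 2 (-1.75), and Sncg without Dounce replicate 1 (-5.14). Gabra6 lost it with DESeq2 size factors (-0.95) and without Tissue or Dounce replicate 4 (-0.97 and -0.91), and Grik2 with DESeq2 size factors (-0.99) and without Tissue replicate 4 (-0.91). Values also moved by more than 1.5 times with the call kept. Without Dounce replicate 2, Bhlhe22 was at -8.51, Gng13 at -8.42, Hp at -10.22, Flt1 at -4.14, Fxyd7 at -4.19, Klhdc8a at -3.95, Sox18 at -6.14, and B630019K06Rik at -1.84. Without Dounce replicate 3, B630019K06Rik was at -4.59, Cartpt at -5.86, Hp at -4.94, and Lcn2 at -6.31. Lcn2 was at -10.83 without Dounce replicate 1 and at -8.22 without Tissue replicate 2, and Rgs5 at -3.44 and -3.45 without Dounce replicates 1 and 4.

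In 256 groups of 4 libraries (128 genes in Dounce-TRAP and Tissue-TRAP), 1 library stood far from the other 3 in 23, its gap to the nearest, as a share of the group's range, being above Dixon's 95% critical value. Chance gives about 1 in 20 such groups. Of the 23, 9 were in Dounce-TRAP replicate 3, where Mog was at 145 CPM (41.9 to 49.7 in the others), Gria2 at 458 CPM (283 to 307), Snhg11 at 3120 CPM (2030 to 2130), Spp1 at 20.1 CPM (5.06 to 6.93), BC021785 at 201 CPM (87.8 to 93.5), and Rhox8 at 87.6 CPM (24.4 to 29.3). The same library was low for Csf1r at 6240 CPM (9210 to 9670), Atp8a2 at 24.2 CPM (76.3 to 82.2), and Rangap1 at 187 CPM (322 to 347). In Dounce-TRAP replicate 4, Tnf was at 8.63 CPM (0.599 to 1.07) and Ccl3 at 1.19 CPM (7.2 to 8.2), and in replicate 1 Gm5415 was at 36.5 CPM (22.7 to 24.8). Several rested on few counts: Egr3 at 3.19 CPM (0 to 0.267), Bhlhe22 at 1.2, Hp at 0.799, and Gng13 at 0.399 CPM in Dounce-TRAP replicate 2, and Lcn2 at 0.533 CPM in replicate 1, the last 4 against 0 in the other libraries. In Tissue-TRAP, replicate 4 held Gm1821 at 19.6 CPM (111 to 119), Grik2 at 24.4 CPM (15.1 to 16.6), and P2ry12 at 221 CPM (185 to 189). Replicate 2 held Mbp at 500 CPM (356 to 370) and 4932411N23Rik at 0.315 CPM (0 in the others), and replicate 1 held Xkrx at 0.774 CPM (1.26 to 1.35). Without Tissue-TRAP replicate 2 the log2 fold change of 4932411N23Rik was 10.83 in place of 8.12.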

How the results depend on the processing

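Against 7407 genes called in Dounce-TRAP against Tissue-TRAP, DESeq2's Wald test called 7380, DESeq2 size factors gave 7378, limma on the deposited normalized log2 values 7564, a fit of the 2 groups alone 7061, libraries thinned to the shallowest 6700, and no filter 7840. Requiring at least 10 counts in every library left 10308 genes, and counts fell to 4675 called, 2333 of them lower (3993 before), with 41 of the study's neuronal markers, 5 immediate-early, 2 endothelial, and 1 neuropeptide gene lower and 12 cytokine and 5 nuclear long noncoding RNA genes higher. That filter removes genes absent from 1 library, so it removes many that fell. With limma the median of all genes moved from -0.06 to -0.24 and 39.5% of calls were higher in place of 46.1%. Leaving out each library gave 7271 to 7604 calls, 4164 to 4940 for the difference between TRAP and Input, 7466 to 7767 in Input, and 4086 to 4422 against Cell-TRAP (-) Inhibitors. With the animal as a replicate block for the paired Input and TRAP libraries, 4558 genes were called for that difference in place of 4586, and Asns (-1.01) and Cldn5 (-1.4) gained a call. Directions were compared only for the genes named in the text, and none of those called reversed. Medians of 22 of 39 gene lists moved in some setting by at least the SD between Dounce-TRAP libraries (50 of 663 values). Of 2113 recomputed fold changes, 3 lost a call (Gabra6 in 2 settings, among them limma at log2 1.09, and Pdgfra) and 5 gained one (Nfkbia in 3, Malat1, and Ccl3). Of 1397 recomputed differences between TRAP and Input, 19 lost a call, in 8 genes, and 27 gained one, in 13. Shallow Dounce-TRAP libraries limit genes near 1 CPM, where 3 counts correspond to 0.599 to 1.12 CPM.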

Other observations

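Gene lists that belong to no cell type above moved in both directions in Dounce-TRAP against Tissue-TRAP (edgeR calls, with 23.2% of all genes higher and 27.1% lower). Proliferation genes were higher in 8 of 14 members and lower in 1, with a median log2 fold change of 1.61. Their summed share of counts was nonetheless lower, at 0.0211% to 0.0284% of Dounce-TRAP and 0.0492% to 0.0636% of Tissue-TRAP. Collagen and laminin genes were higher in 14 and lower in 11 of 46 members tested (median 0.19), replication-dependent histone genes higher in 1 and lower in 7 of 19 (median -0.5), and snoRNA host genes higher in 3 and lower in 3 of 12 (median 0.15).

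The study's own astrocytic markers were lower in 93 and higher in 11 of 138 members (median -1.51). Its macrophage genes were higher in 59 and lower in 37 of 156 (median 0.36). Their summed share was lower, at 0.471% to 0.66% of Dounce-TRAP and 0.859% to 0.968% of Tissue-TRAP counts.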
